A study of Homo sapiens with 12 samples.

Results

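The let-7 family of microRNAs (miRNAs) was followed in SaOS-2 cells and in their CD99 transfectants before and during culture in differentiation medium. Its members are the human (hsa) miRNAs hsa-let-7a, hsa-let-7b, hsa-let-7c, hsa-let-7d, hsa-let-7e, hsa-let-7f, hsa-let-7g, hsa-let-7i and hsa-miR-98, taken by name from the deposited value table, and all 9 of them were found among its 851 human miRNAs. SaOS-2 is a human osteosarcoma cell line. Sa/CD99 stands for the clones Sa/CD99_wt22 and Sa/CD99_wt36, called clones 22 and 36 below, each a single line derived from SaOS-2 by stable transfection of CD99, a surface glycoprotein of bone and blood cells, with neomycin selection. Untransfected SaOS-2 cells were the controls. Both cell types were harvested at day 0, which the paper calls basal, and at days 7 and 14 of culture in the same osteogenic medium. By the paper's Methods this medium held less serum than the routine one. Each comparison with day 0 thus joins the change of medium and serum to time in culture, and their separate parts were not tested. Total RNA was hybridised to 12 one-colour Agilent human miRNA arrays, 2 for each of the 6 groups, so that a Sa/CD99 group holds clones 22 and 36 and a SaOS-2 group holds replicates 1 and 2. The array has no probe for CD99 messenger RNA, and the transfection was therefore not checked here. Nothing names what separates SaOS-2 replicates 1 and 2, and p-values then measure the spread between these arrays, which may be technical.

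let-7 miRNAs are made from hairpin transcripts of many genes, and the mature strand guides Argonaute to messenger RNAs that pair with its seed, the bases near its 5′ end. The family is known for being scarce in embryonic cells and abundant in differentiated ones, for the RNA-binding protein LIN28 that blocks its maturation, and for repressing RAS, MYC and HMGA2, which drive growth. Loss of let-7 is common in tumors. Mesenchymal lineages, from which bone cells arise, usually carry high amounts of it.

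The 9 mature sequences, shown because one seed unites the family while very few bases separate its members, were copied from RefSeq on GRCh38.p14 with a match for 9 of 9 names. Capitals mark the seed, bases 2 to 8 from the 5′ end:
hsa-let-7a: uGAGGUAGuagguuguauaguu
hsa-let-7b: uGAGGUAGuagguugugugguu
hsa-let-7c: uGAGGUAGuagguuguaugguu
hsa-let-7d: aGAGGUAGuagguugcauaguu
hsa-let-7e: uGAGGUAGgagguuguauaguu
hsa-let-7f: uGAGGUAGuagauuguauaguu
hsa-let-7g: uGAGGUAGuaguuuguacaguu
hsa-let-7i: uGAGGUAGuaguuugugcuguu
hsa-miR-98: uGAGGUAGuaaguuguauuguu

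Each of these miRNAs is 22 bases long and carries the seed GAGGUAG. Counted from base 1 at the 5′ end and written as the let-7a base, the position and the base of the other member, let-7c differed from let-7a by A19G, let-7e by U9G and let-7f by G12A. let-7b differed by A17G and A19G, let-7d by U1A and U16C, let-7g by G12U and U18C, and miR-98 by G11A and A19U. let-7i was the most distant from let-7a, with G12U, A17G, U18C and A19U. Over the 36 pairs of members the number of differing bases ran from 1 to 6, and 4 pairs differed by 1 base. How far a probe of one member also binds another was not measured in these data. In RefSeq, 11 of 2370 mature human miRNAs carried this seed, and those outside the family as defined here were miR-4458 and miR-4500.

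The members come from 12 genes at 8 places of GRCh38.p14. MIRLET7A1 (chr9:94175957-94176036, plus strand), MIRLET7F1 (chr9:94176347-94176433) and MIRLET7D (chr9:94178834-94178920) lie together within the span of the non-coding host gene MIRLET7A1HG. MIRLET7A3 (chr22:46112749-46112822) and MIRLET7B (chr22:46113686-46113768) share MIRLET7BHG on the plus strand. MIRLET7A2 (chr11:122146522-122146593, minus strand) lies within MIR100HG together with MIR100 and MIR125B1. MIRLET7C (chr21:16539828-16539911) lies within MIR99AHG beside MIR99A, and MIRLET7E (chr19:51692786-51692864), within the span of SPACA6, has MIR99B and MIR125A as neighbours on the plus strand. MIRLET7F2 (chrX:53557192-53557274) and MIR98 (chrX:53556223-53556341) lie on the minus strand within HUWE1. MIRLET7G (chr3:52268278-52268361) lies within WDR82 on the minus strand and MIRLET7I (chr12:62603686-62603769) within MIRLET7IHG on the plus strand. Since let-7a has 3 genes and let-7f has 2, a mature level does not tell which gene it came from.

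Before any level is given, the deposited records have to be set against each other, because they name the arrays differently. The value table holds normalised log2 values under column titles that give cell type, day and clone or replicate. Each of its 12 columns had the same detected and undetected miRNAs as exactly 1 scanner file, for 847 of 847 shared names, and in 0 of the 12 was that file deposited under the same sample. In the order of the sample numbers, the scanner files of all 12 samples follow the order of slide and position on the slide. Which record names the arrays rightly was not tested here. The values below follow the titles of the value table, and scanner signals are given for the array that each column matches. Every order by day or cell type given below rests on these titles, and values for the arrays as filed are set beside the main results. By the table's titles, 1 slide held both cell types at day 0 and SaOS-2 at day 7, and the other held the remaining groups. Summed signal over all human miRNAs ran from 8594 to 11371 scanner units on the 4 arrays of day 0 and from 25232 to 62236 on the other 8. The array of SaOS-2 day 7 replicate 2, at 56553, stood apart from replicate 1, at 25232. Of the 9 mesenchymal miRNAs examined 7 were detected on all 12 arrays, miR-222 on 11 and miR-143 on 0. Of the 24 miRNAs of blood, epithelium, liver, muscle, neurons and stem cells only miR-486-5p was detected on all 12. Among the others, miR-133b was detected on 3 arrays, miR-9 on 1 and the rest on 0.

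Every member was detected on all 12 arrays, where each had 2 probes and 16 spots, with no saturated spot. Detection was read per miRNA and not per probe. At day 0 of the value table, let-7a, let-7b, let-7d, let-7e and let-7f, ranked between 2 and 12 among all miRNAs of their arrays, let-7c, let-7g and let-7i between 18 and 32, and miR-98 between 105 and 121. The mean of each member was lower at day 14 than at day 0 in both cell types. For hsa-let-7a the table gave 10.09 log2 units in both Sa/CD99 clones at day 0, 9.83 and 9.61 at day 7, and 8.55 and 8.69 at day 14. In SaOS-2 it gave 10.09 in both replicates at day 0, 9.83 and 8.80 at day 7, and 9.42 and 9.20 at day 14. The 4 arrays of day 0 were thus at one value, the 4 of day 14 all lay below it, and SaOS-2 day 7 replicate 2 lay among the latter.

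hsa-let-7c, from the cluster with miR-99a, stood at 7.09 and 7.14 in Sa/CD99 at day 0, at 5.75 in both clones at day 7, and at 4.85 and 4.97 at day 14. In SaOS-2 it stood at 6.91 and 6.85, then at 6.27 and 5.19, then at 5.70 and 5.41. The day 14 arrays were below the day 0 arrays in both cell types, without overlap.

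hsa-miR-98, the dimmest member, went from 3.45 and 2.88 at day 0 through 0.93 and 0.49 at day 7 to -1.09 in both Sa/CD99 clones at day 14. In SaOS-2 it went from 3.20 in both replicates through 2.05 and -0.18 to -0.18 and 0.81. Its table value fell furthest of the family in both cell types. Its scanner signal was between 3.01 and 8.87 units on every array, however, against 689 to 1092 for let-7a.

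let-7g and let-7i were the members whose table values moved least. At day 0 hsa-let-7g had values of 7.47 and 7.34 in Sa/CD99 and of 7.56 and 7.26 in SaOS-2, and at day 14 of 6.69 and 6.85 and of 6.85 and 7.14. The Sa/CD99 values of hsa-let-7i went from 6.69 and 6.97 on the first day to 5.93 and 6.62 on the last, and in SaOS-2 its day 14 values, 6.59 and 7.09, overlapped those of day 0, 7.05 and 7.20. Over the 9 members, both day 14 arrays lay below both day 0 arrays for 9 in Sa/CD99 and for 8 in SaOS-2. The same order was held by 52.5% and 47.9% of the 219 miRNAs tested, and by 88 and 73 of the 100 miRNAs detected on all 12 arrays.

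**Figure D1:**
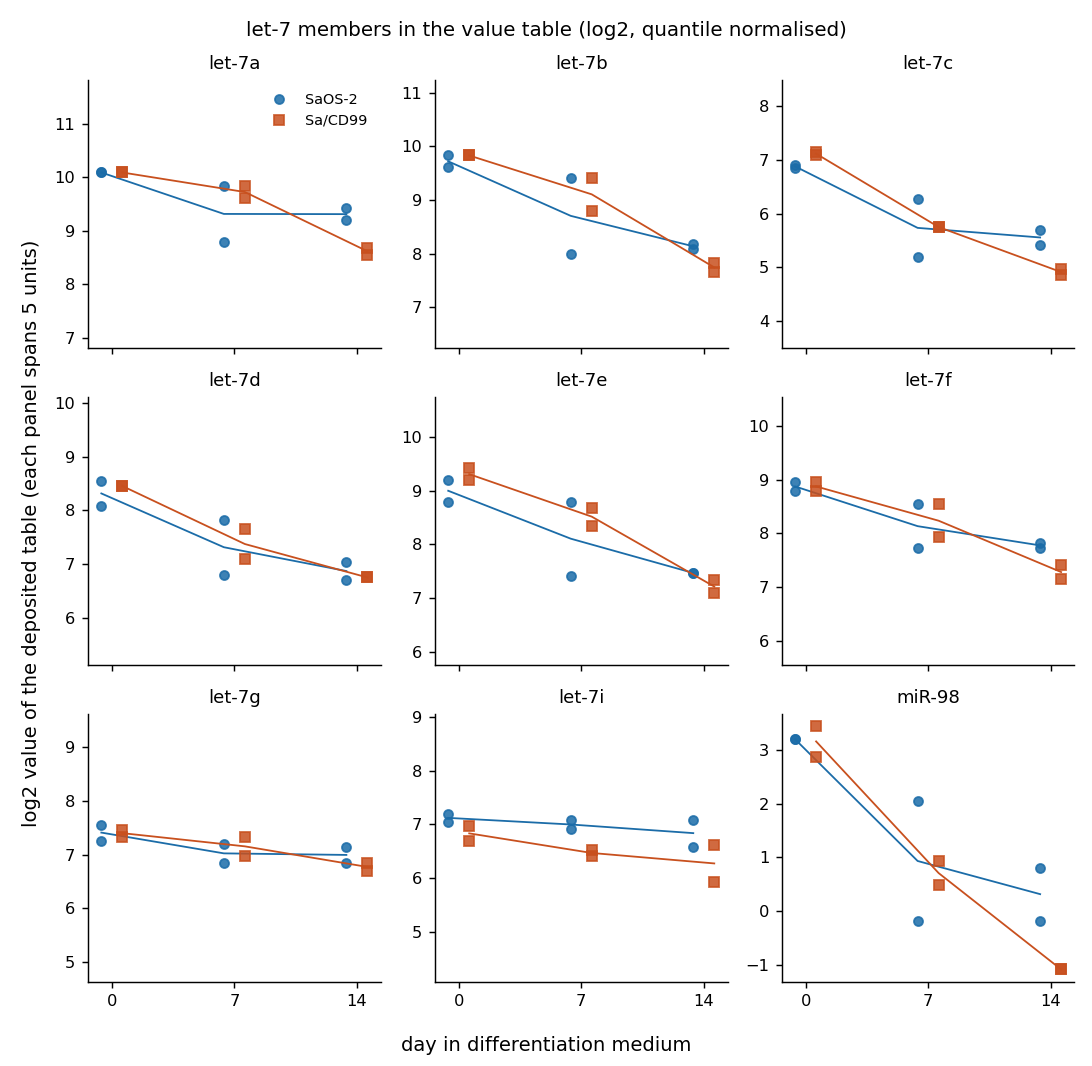
Log2 values of the 9 let-7 members in the value table (vertical axis, 5 units in each panel) by day in differentiation medium (horizontal axis), for SaOS-2 (circles) and Sa/CD99 (squares), with 1 point per array and lines through the means of the 2 arrays of a group. let-7a starts at 10.09 on all 4 arrays of day 0, and miR-98 ends at -1.09 in both Sa/CD99 clones.

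The change from the first to the last day was fitted with limma on the 219 miRNAs that both arrays of some group detected. This comparison was added after the values had been seen, and a member was called where its p, adjusted by Benjamini-Hochberg, did not exceed 0.05. In Sa/CD99 the fit called 7 of 9 members, all of them lower at day 14, where 74.4% of all miRNAs tested were called in either direction and 37.4% were called lower. let-7c had a log2 difference of -2.21 ± 0.39 (SE, n = 2 arrays a group; adjusted p by limma = 0.002), let-7b one of -2.09 ± 0.48, let-7e one of -2.10 ± 0.46 and let-7a one of -1.47 ± 0.38. let-7d and let-7f, which have genes beside let-7a-1 on chromosome 9, fell by 1.71 and 1.60. miR-98 had the largest difference in the table, -4.25 ± 0.69, but the smallest of the family, -0.94, with rma of the same arrays, and one of -0.63, not called, with 75th percentile scaling. With that rma all 9 members were called in Sa/CD99, let-7g at -1.08 and let-7i at -1.01, where 72.1% of all miRNAs were called, and 7 in SaOS-2, where 58.9% were and miR-98, at -0.27, was not. let-7g, at -0.63 with a 95% interval from -1.36 to 0.10, and let-7i, at -0.56 with one from -1.38 to 0.26, did not pass. The median over the 9 members was -1.71 and that over all miRNAs tested -0.64. Many of those miRNAs were undetected at day 0 and stood at the floor there. Over the 100 miRNAs detected on all 12 arrays the median was -1.57, close to that of the family, and 82 of the 100 were called in a fit on these alone.

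In SaOS-2 the same comparison called 6 of 9 members, again all lower, against 55.7% of all miRNAs called and 26.9% called lower. Their log2 differences were -2.89 ± 0.69 for miR-98, -1.59 ± 0.48 for let-7b, -1.53 ± 0.46 for let-7e, -1.45 ± 0.42 for let-7d, -1.33 ± 0.39 for let-7c and -1.10 ± 0.38 for let-7f. let-7a, let-7g and let-7i did not pass, at -0.78, -0.42 and -0.28. The median over the 9 members was -1.33 and that over all miRNAs -0.47. Over the 100 miRNAs detected on all arrays the median was -1.15, and 64 of them were called in a fit on these alone. Without any single one of the 4 SaOS-2 arrays compared, the count of called members went from 6 to between 0 and 2, where 29.7% to 55.7% of all miRNAs were still called. In Sa/CD99 it was 7 without each array in turn, where 60.7% to 63.5% of all miRNAs were called. By the titles of the table both comparisons set arrays of 1 slide against arrays of the other, so that slide and day cannot be told apart in them.

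The single steps gave fewer calls. From day 0 to day 7, all 9 members had lower means in both cell types. In Sa/CD99 the fit called let-7c, at -1.37 ± 0.39, and miR-98, at -2.46 ± 0.69, with adjusted p of 0.030 for each by limma, where 32% of all miRNAs were called. In SaOS-2 it called miR-98 alone, at -2.27 ± 0.69 with an adjusted p of 0.035 by limma, where 36.5% were called, and let-7c stood at -1.15. These calls were not stable: leaving out any array of Sa/CD99 left 0 members, and in SaOS-2 the count was 7 without day 7 replicate 1 and 0 without each of the other arrays. The shares of all miRNAs called in these fits were 20.1% to 27.4% in Sa/CD99, 52.1% without SaOS-2 day 7 replicate 1 and 27.4% to 31.5% without the others. With rma of the relabelled arrays miR-98 was not called in either cell type, at -0.88 in Sa/CD99 and -0.33 in SaOS-2. let-7c was called in both, at -1.67 and -1.25, where 40.6% and 47% of all miRNAs were. With 75th percentile scaling miR-98 stood at -0.26 in both and no member was called, where 24.7% and 27.9% were. With a block for same-numbered arrays the table also called let-7c in SaOS-2, where 42.9% were called. The step in SaOS-2 lies within 1 slide and that in Sa/CD99 crosses slides.

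From day 7 to day 14 no member was called by limma in Sa/CD99, where 19.6% of miRNAs were called, though 5 members had an unadjusted p under 0.05 and both day 14 arrays lay below both day 7 arrays for 8 of 9. This order was held by 44.3% of the miRNAs tested and by 68 of the 100 detected on all arrays. The differences there ran from -0.20 for let-7i to -1.80 for miR-98 and lay within 1 slide. In SaOS-2 no member was called either, with 0 members at an unadjusted p under 0.05 and 0% of all miRNAs called. The differences in that cell type ran from -0.64 to -0.00, a step that crosses slides.

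The study asked how CD99 changes the miRNAs of these cells, and here the family gave no call. At the study's thresholds, an unadjusted p of at most 0.01 with a change of at least 1.4-fold, limma called 0 of 9 members between Sa/CD99 and SaOS-2 at day 0, against 2.74% of all miRNAs, 0 of 9 at day 7, against 3.2%, and 0 of 9 at day 14, against 9.13%. No member reached an unadjusted p of 0.05 at any of these days. At day 0 the differences, Sa/CD99 minus SaOS-2, ran from -0.29 for let-7i to 0.31 for let-7e with a median of 0.00. At day 7 they ran from -0.53 for let-7i to 0.41 with a median of 0.10. At day 14 all 9 were negative, from -0.12 for let-7d to -1.40 for miR-98, with a median of -0.50 where the median over all miRNAs was -0.00 and that over the 100 miRNAs detected on all arrays -0.49. The 95% interval for let-7a at that day ran from -1.58 to 0.19, so a lower level of either small or large size was not excluded by it. With each column centred on the median of the 100 miRNAs that all 12 arrays detected, 6 of the 9 were negative at day 14, with scaling to the 75th percentile 4 were, and with rma of the relabelled arrays and without scaling all 9 were, with medians of -0.36 and -0.23.

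A different course of the family over days in the 2 cell types was tested as the interaction, an F test over both terms. It called 0 of 9 members, the smallest adjusted p being 0.749 by limma, and 1.83% of all miRNAs. No member had an unadjusted p under 0.05. The difference of Sa/CD99 from SaOS-2 in the change to day 14 was negative for all 9 members in the table, with a median of -0.50, where the median over the 100 miRNAs detected on all arrays was -0.42. It was negative for 6 of 9 with the columns centred, with a median of -0.11, and for 5 of 9 without scaling, with a median of -0.17.

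The scanner signal of the same arrays gave another picture. Total gene signal is the sum that the scanner software makes over the probes of a miRNA, and it is not scaled between arrays. For miR-98 it had the lowest value and the day 14 differences of 1 of its 2 probes alone. let-7a had 945 and 846 units in Sa/CD99 at day 0, 1092 and 864 at day 7, and 689 and 968 at day 14. In SaOS-2 it had 977 and 934, then 821 and 876, then 752 and 961. The highest array was 1.59 times the lowest, and the groups overlapped. On the log2 scale this range, 0.67, was the smallest among the 100 miRNAs detected on all 12 arrays, whichever record names them. let-7d had rank 3 with 0.82, let-7e rank 5 with 0.99 and let-7b rank 9 with 1.08, while let-7i had rank 52 with 1.89. These ranks were looked up after the values had been seen, and they are a description.

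**Figure D2:**
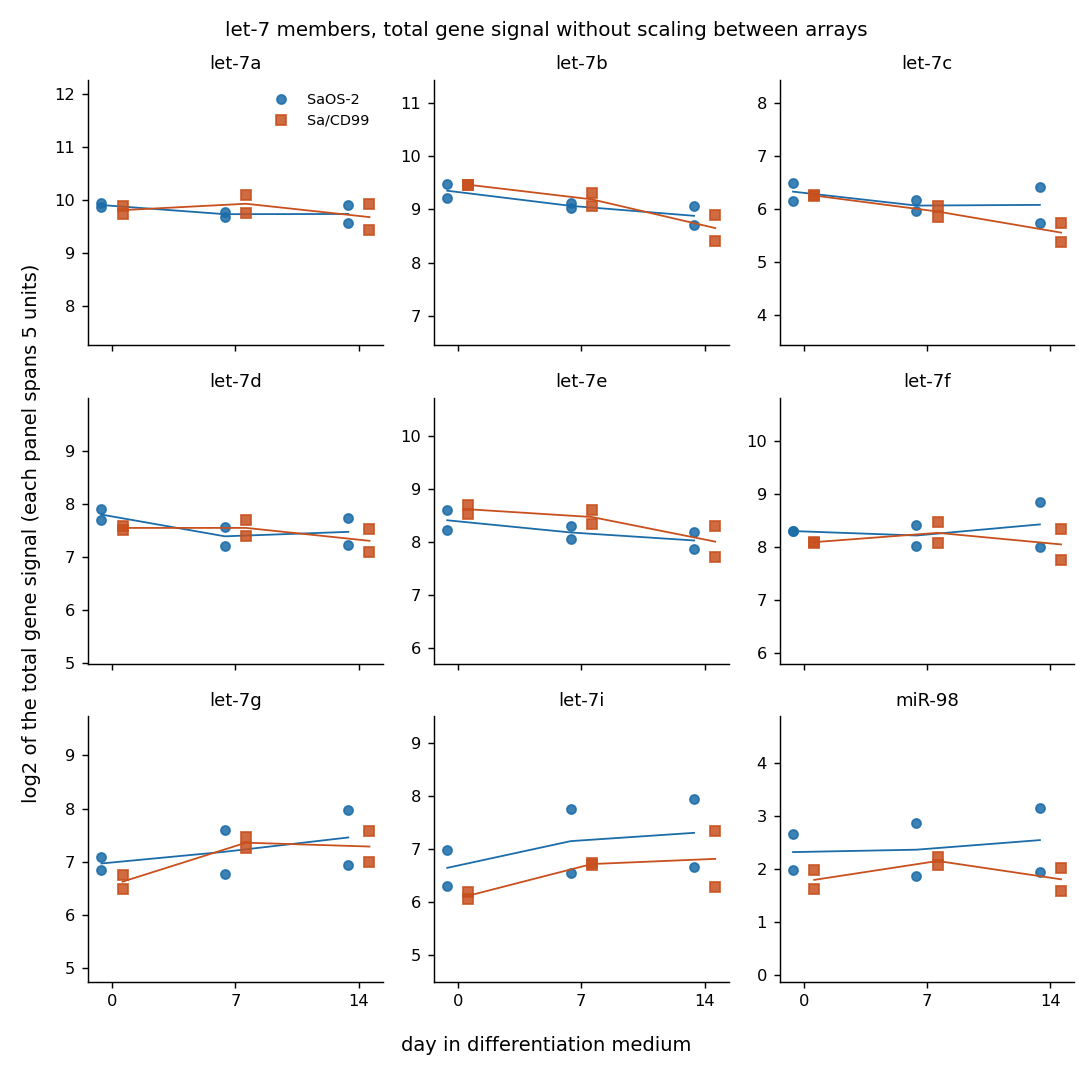
Log2 of the total gene signal of each member (vertical axis, 5 units in each panel) by day (horizontal axis), on the arrays that match the columns of the value table, with symbols and lines as in the plot of table values. let-7a stays between 689 and 1092 units on all 12 arrays, and the downward course of the table values is absent for let-7f, let-7g, let-7i and miR-98, whose differences from day 0 to day 14 run from -0.04 to 0.69.

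let-7c had 76.5 and 76.6 units in Sa/CD99 at day 0, 66.9 and 57.8 at day 7, and 41.6 and 53.6 at day 14. Its day 14 arrays were lower than those of day 0 by this measure too. let-7b, which showed the same order, had 708 and 706 units at day 0, 634 and 539 at day 7, and 339 and 477 at day 14. let-7e had 417 and 370, then 387 and 326, then 211 and 314. These were the 3 of 9 members with both day 14 arrays below both day 0 arrays in Sa/CD99, an order held by 16% of the miRNAs tested and by 23 of the 100 detected on all arrays. In SaOS-2 the let-7c signals of day 14, 53.8 and 85.4, overlapped those of day 0, 71.6 and 90.7. let-7b and let-7e did not overlap there either. let-7b had 717 and 597 units at day 0 and 416 and 534 at day 14, and let-7e 387 and 299, then 234 and 292. The share of all miRNAs with this order in SaOS-2 was not counted.

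let-7g and let-7i ran the other way. let-7g had 108 and 89.9 units in Sa/CD99 at day 0, 177 and 152 at day 7, and 127 and 191 at day 14. let-7i had 66.4 and 72.7, then 106 and 104, then 78.0 and 162. Both day 14 arrays were thus above both day 0 arrays for these 2 of 9 members in Sa/CD99, an order held by 57.5% of the miRNAs tested and by 39 of the 100 detected on all arrays. In SaOS-2 they overlapped, with let-7i at 79.4 and 126 at day 0 and at 102 and 245 at day 14. miR-98 had 3.91 and 3.06 units at day 0 in Sa/CD99 and 3.01 and 4.03 at day 14.

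Fitted on the log2 of this signal with the same model, no member was called in any of the comparisons. From day 0 to day 14 in Sa/CD99 the fit called 0 of 9 members and 46.6% of all miRNAs, with 0 members at an unadjusted p under 0.05. let-7b stood at -0.82 with a 95% interval from -1.67 to 0.04, let-7c at -0.70, let-7a at -0.13 with an interval from -0.99 to 0.72, let-7g at 0.66, let-7i at 0.69 and miR-98 at 0.01. In SaOS-2 it called 0 of 9 members and 36.5% of all miRNAs, with values from -0.47 for let-7b to 0.66 for let-7i. The medians over the 9 members were -0.13 in Sa/CD99 and -0.17 in SaOS-2, and those over all miRNAs tested 0.99 and 0.66. Over the 100 miRNAs detected on all arrays the medians were 0.15 and 0.16. Relative to the median of all miRNAs tested the family was thus lower at day 14 in the signal and in the table alike, and relative to those detected throughout it was lower by no more than 0.33 in any of these.

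The summed signal of the 9 members lay between 1840 and 3056 units on the 12 arrays, a ratio of 1.66, while that of all human miRNAs spanned a ratio of 7.24. The share of the family in all signal was 30.6% and 30.5% in Sa/CD99 and 30.1% and 24.1% in SaOS-2 at day 0. At day 14 it was 3.22% and 4.31% in Sa/CD99 and 5.23% and 6.60% in SaOS-2. At day 7 it was 7.42% and 6.11% in Sa/CD99 and 9.39% and 4.74% in SaOS-2. By the titles of the table the share was thus lower on all arrays of day 7 and day 14 than on any of day 0. As filed it was not, with 9.39% and 30.6% in Sa/CD99 and 3.22% and 5.23% in SaOS-2 at day 0, and 30.5% and 24.1% in Sa/CD99 and 6.60% and 6.11% in SaOS-2 at day 14. Under the titles the rank of let-7a among all miRNAs of its array went with it, from 2 or 3 at day 0 to between 5 and 10 at day 14, and that of miR-98 from between 105 and 121 to between 152 and 185. As filed the ranks of let-7a were 3, 2, 10 and 5 on the arrays of day 0 and 2, 3, 7 and 4 on those of day 14. Quantile normalisation, which the table's values follow with at most 0.31 log2 units of difference for the members, sets a value by its rank alone. Fewer let-7 molecules per cell and more of other RNAs in the same labelled amount cannot be told apart on these arrays.

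**Figure D3:**
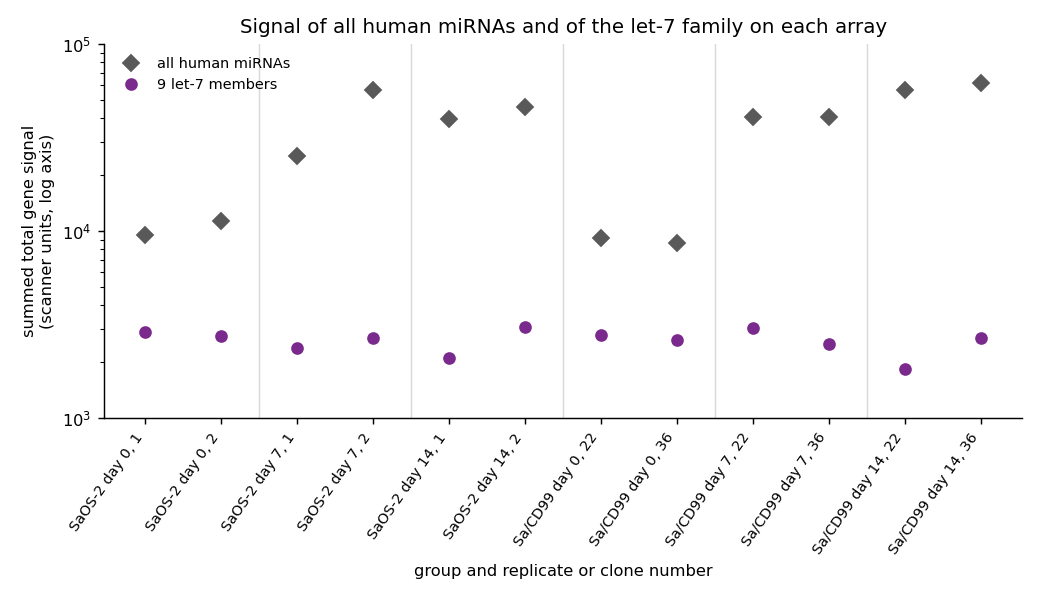
Summed total gene signal in scanner units (vertical log axis) of all human miRNAs (diamonds) and of the 9 let-7 members (circles) on each array, by group and replicate or clone number (horizontal axis). The family stays between 1840 and 3056 units while the sum of all miRNAs runs from 8594 to 62236.

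The results also changed with the names of the arrays. With the scanner arrays under the samples they were filed under, rma values called 0 of 9 members from day 0 to day 14 in either cell type, where 0% of miRNAs were called. The medians over the 9 members were then 0.13 in Sa/CD99 and 0.47 in SaOS-2, upward instead of downward. let-7a stood at 0.19 ± 0.77 and 0.33 ± 0.77, and miR-98 at 0.11 ± 0.41 and 0.66 ± 0.41. In unscaled signal, both arrays filed as SaOS-2 day 14 lay above both filed as day 0 for 9 of 9 members, with let-7a at 961 and 864 units against 689 and 752. Of all miRNAs tested 28.2% showed this order, and of the 100 detected on all arrays 50 did.

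Between cell types the filed arrays also gave 0 of 9 calls, where the fit called 2.35% of all miRNAs on the first day, 0% at day 7 and 7.04% on the last. By rma all 9 members then had higher means in Sa/CD99 at each day, and without scaling 7 had at day 0, 4 at day 7 and 4 at day 14. The rma differences ran from 0.81 to 1.85 at day 0, where 4 members had an unadjusted p under 0.05, and from 0.25 to 1.63 at day 14, where 1 had. Under this naming each cell type had a slide to itself, so that the effects of slide and CD99 cannot be told apart. The direction of the day 14 difference thus changed with the record and with the scaling, the median of the filed arrays being 1.17 by rma and -0.04 without scaling, and no member passed in any of these.

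**Figure D4:**
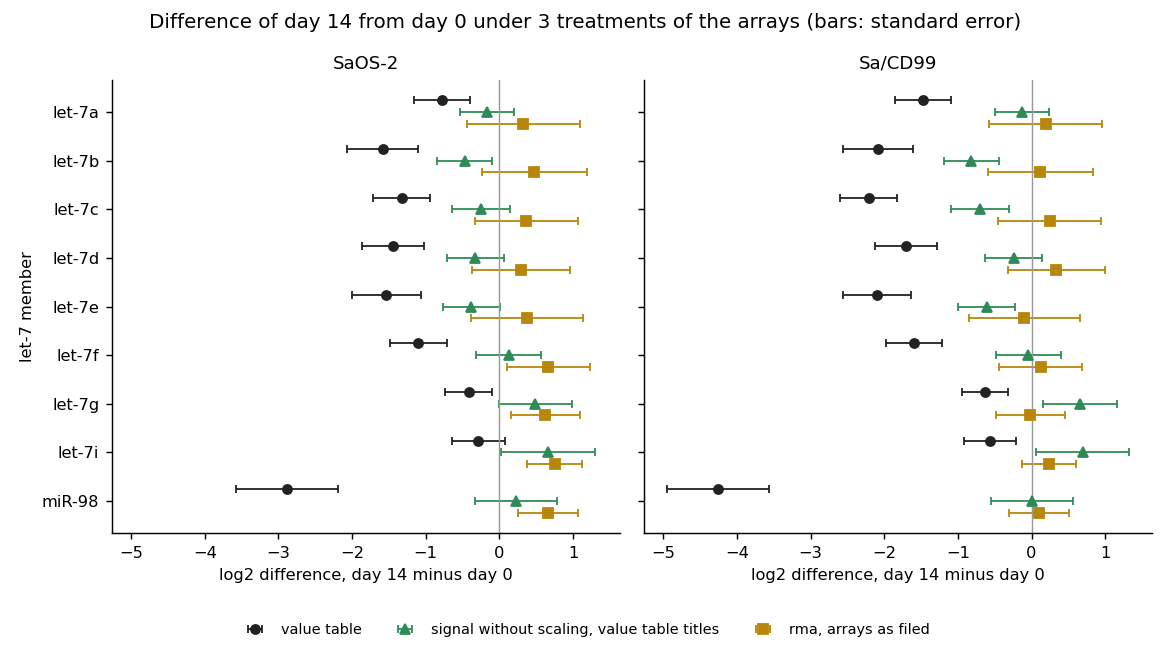
Log2 difference of day 14 from day 0 (horizontal axis) for each member (vertical axis) in SaOS-2 (left) and Sa/CD99 (right), with bars of 1 standard error, for the value table (black circles), the signal without scaling under the table's titles (green triangles) and rma of the arrays as filed (ochre squares). All 9 members are below 0 in the value table, from -0.28 to -4.25, while the other treatments lie on both sides of 0, between -0.82 and 0.75.

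The ratio of a pair of members on the same array needs no scaling between arrays. It is given for let-7b over let-7g and let-7e over let-7i, chosen after their values were seen, as a description with no test, and only the change of their ratio across arrays has a meaning, since their probes differ. let-7b over let-7g was 6.56 and 7.85 in Sa/CD99 at day 0, 3.59 and 3.54 at day 7, and 2.66 and 2.50 at day 14. In SaOS-2 it was 6.23 and 4.40, then 5.07 and 2.68, then 3.41 and 2.12. By the titles of the table, the 4 arrays of day 0 were all above the 4 of day 14. let-7e over let-7i ran from 2.37 to 6.28 on the arrays of day 0 and from 1.19 to 2.70 on those of day 14, so for this pair the days overlapped. As filed, the ratio of let-7b to let-7g was 5.07 and 6.56 at day 0 and 7.85 and 4.40 at day 14 in Sa/CD99, and 2.66 and 3.41 against 2.12 and 3.54 in SaOS-2, so the days overlapped.

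**Figure D5:**
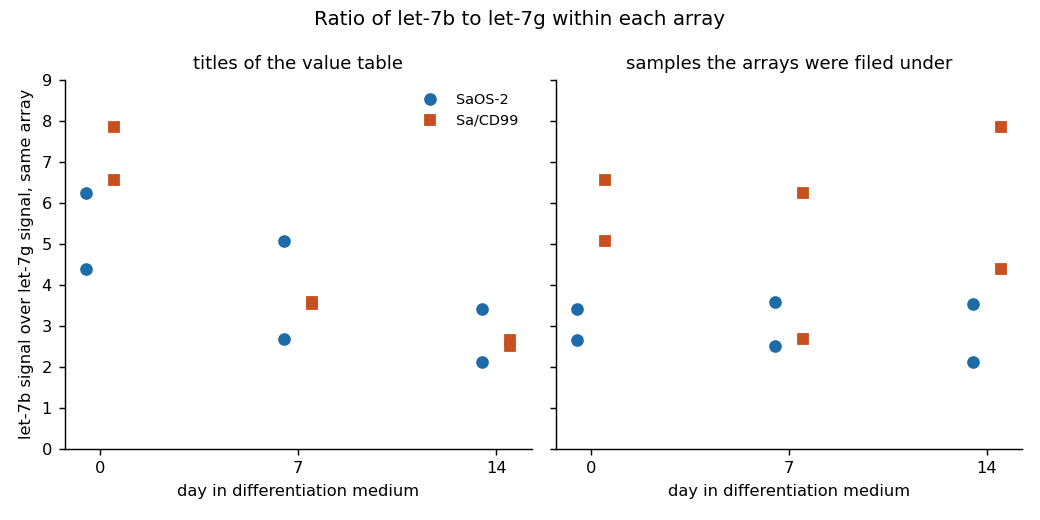
Ratio of the total gene signal of let-7b to that of let-7g on the same array (vertical axis) by day (horizontal axis) for SaOS-2 (circles) and Sa/CD99 (squares), under the titles of the value table (left) and under the samples the arrays were filed under (right). On the left the 4 points of day 0 run from 4.40 to 7.85 and the 4 of day 14 from 2.12 to 3.41, and on the right the days overlap.

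The 2 probes of a member could be set against each other in the same way. From day 0 to day 14 in unscaled signal they moved in the same direction in 15 of the 18 pairs of probe and cell type. The log2 differences of the 2 probes of a member were within 0.27 of each other for all members but miR-98, where they differed by up to 0.67. Of the probes of miR-98, 1 stood at 0.23 in SaOS-2 and 0.01 in Sa/CD99 and the other at -0.07 and -0.66. The total gene signal of miR-98 followed the first alone, with the same differences and the same lowest value, 3.01 units. The other probe went down to 0.31 units.

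Other products of the let-7 hairpins and of their neighbours were looked at from fixed lists. Of the 9 passenger strands in the table, the strand opposite to the mature miRNA, 8 were detected on no array. let-7e* was detected on 1, that of SaOS-2 day 0 replicate 2, with 1.33 units. Of the 11 arms from the polycistrons that hold let-7a-2, let-7c and let-7e, miR-99b, miR-100, miR-125a-5p and miR-125b were detected on all 12 arrays, miR-99a* and miR-100* on none, and the others on 4 to 11.

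The 4 neighbours detected on all 12 arrays were lower at day 14 in the value table. From day 0 to day 14 in Sa/CD99 the log2 difference was -2.49 for miR-99b, -2.24 for miR-125a-5p, -2.30 for miR-100 and -2.94 for miR-125b, and all 4 were called by limma, as they were in SaOS-2. In the fit on the 100 miRNAs detected on all arrays, 82 were called in Sa/CD99 and 64 in SaOS-2. miR-99a was detected on 8 arrays, with 1 array of day 0 at the floor in each cell type, so no difference is given for it. Of the 4, in unscaled signal only miR-125b was called, in Sa/CD99, at -1.44 with an adjusted p of 0.045 by limma. As filed, by rma, none of the 4 was called by limma in either cell type and 0 had an unadjusted p under 0.05, with positive differences from 0.11 for miR-125a-5p to 1.06 for miR-125b in Sa/CD99.

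Of the opposite strands of the let-7e cluster, miR-125a-3p and miR-99b* were higher at day 14 by the titles of the table, while let-7e* was detected on no array of that day. miR-125a-3p had 2.01 units in clone 22 and was not detected in clone 36 at day 0, and had 36.6 and 42.5 at day 7 and 125 and 127 at day 14. In SaOS-2 it had 1.92 and 2.42, then 26.4 and 114, then 73.4 and 96.3. miR-125a-5p, from the other arm of the same hairpin, had 93.4 and 87.5 units in Sa/CD99 at day 0 and 39.8 and 60.0 at day 14. The log2 difference of miR-125a-3p in SaOS-2, where every array detected it, was 5.29 in unscaled signal, called by limma. None is given for Sa/CD99, where the undetected array of day 0 stands at the floor of 0.1 units. miR-99b* was detected on 0 of the 4 arrays of day 0 and on all 4 of day 14, at 17.2 to 25.6 units. In the value table, miR-125a-3p was not called in SaOS-2, at 3.88 with an adjusted p of 0.055 by limma. As filed, miR-125a-3p had 26.4 and 2.01 units in Sa/CD99 at day 0 and 2.42 in clone 36 at day 14, being undetected in clone 22, and in SaOS-2 it had 125 and 73.4 at day 0 and 96.3 and 42.5 at day 14. As filed, miR-99b* was detected on 2 of the 4 arrays of day 0 and on 2 of those of day 14. The upward course of both strands thus rests on the titles. From day 0 to day 14 summed signal and slide both changed on these arrays under the titles. From day 0 to day 7 SaOS-2 stayed on 1 slide. The part of slide and summed signal in these differences was not tested.

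The opposite strands of miR-125b were detected on few arrays and, by the titles, on none of day 0, so that a difference from day 0 would only measure the distance to the floor and is not given. miR-125b-1* had 1.38 to 1.76 units on its 5 arrays, and miR-125b-2* had 2.55 to 10.8 on its 4. As filed, each was detected on 2 of the 4 arrays of day 0.

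miR-202, whose seed resembles that of let-7, was detected on 5 arrays. These were SaOS-2 day 7 replicate 2, both SaOS-2 arrays of day 14, at 8.37 and 7.86 units, and both Sa/CD99 arrays of day 14, at 16.0 and 16.7. By these titles it was detected on none of the 4 arrays of day 0, whereas as filed it was detected on 2 of the 4 arrays of day 0, both of SaOS-2, and on 1 of the 4 of day 14.

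The miRNAs whose profile over the 6 groups was most like the mean profile of the members were found by the root mean square of the log2 differences, after centring each profile on its mean. Among 91 other miRNAs detected on all arrays they were miR-1260, at 0.12, miR-425, at 0.13, and miR-23a, at 0.13 in the value table. In unscaled signal they were miR-30d, miR-151-5p and miR-365, so that 0 of the 3 were shared. Scaling to the 75th percentile cannot change this measure, because it shifts all miRNAs of an array alike. With rma of the relabelled arrays they were miR-30d, miR-151-5p and miR-532-3p.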

How the data were processed

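Groups were taken from the sample titles. The authors deposited the scanner intensity of every spot with the total gene signal of every miRNA (Feature Extraction 10.7.3.1 by the file headers), not scaled between arrays, and a table of log2 values, described per the labels as RMA. In this table the authors gave no scale or centring. Its columns follow a quantile normalisation of the total gene signal, with undetected miRNAs at a floor (0.1 units in the signal). In the table this floor differed by column, from -3.00 in Sa/CD99 day 0 clone 22 to -3.32 in SaOS-2 day 7 replicate 2. Without a filter, undetected miRNAs are tested too, and the shift of the floor enters their differences between days.

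Here, a model with 6 group means was fitted to the table with limma 3.58.1 in R 4.3.3 (219 miRNAs that both arrays of some group detected; 6 residual degrees of freedom), and was checked on simulated data. Cell types at 1 day were called at p of at most 0.01 and a fold of at least 1.4, as in the Methods of the study; days and the interaction at an adjusted p of at most 0.05. The members, lists and tests were chosen with earlier results of these data known. Named miRNAs are the 9 members, those of the fixed lists detected on any array, and the 3 nearest in profile. Precision is limited by 2 arrays a group.

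Alternatives were rma (rewritten: background, quantile, median polish) of the arrays as filed (213 miRNAs) or relabelled by the matching column, 75th percentile scaling, centring of columns on the median of the 100 miRNAs detected throughout, no scaling, other filters and thresholds, missing floor values, the replicate block, fewer arrays and each array left out. Clone numbers 22 and 36 name the same lines at every day and so pair the arrays of Sa/CD99; deviations of same-numbered arrays from their group means had correlations over 100 miRNAs of 0.41 to 0.63 in the table for both cell types, and of -0.84 to 0.17 as filed.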

Additional observations from a re-analysis of the deposited data

How the results depend on the processing

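Between the cell types and for the interaction, 0 of 9 members were called under all settings run, each array left out in turn included. The comparisons of days depended on the processing, and the cause was not tested. From day 0 to day 7 in SaOS-2 the 1 called member, miR-98 (36.5% of all miRNAs), became 5 with no filter (82.3%). With rma of the relabelled arrays (47%) it became let-7a, let-7b, let-7c, let-7d and let-7f, and miR-98, at -0.33, was not called. The count was 2 with miRNAs detected on all 12 arrays only (39%) or missing floor values (29.7%). It was 0 under the other threshold (31.5%), arrays of the compared groups only (26%), 75th percentile scaling (27.9%) and centring (31.5%). It was also 0 with the arrays as filed (0% by rma) and with no scaling (25.6%, or 13% over miRNAs detected on all 12 arrays). The calls were not stable when 1 array was left out. In Sa/CD99 the 2 called members (let-7c, miR-98) became 3 with relabelled rma (let-7b, let-7c, let-7d; 40.6% of all miRNAs) or no filter (80.8%), and 0 with 75th percentile scaling (24.7%), centring (26.9%), no scaling (22.4%) and the arrays as filed, and were 0 without any 1 array. From day 7 to day 14 in Sa/CD99 the 0 called members became 1 with relabelled rma (21.5%) and 4 with the arrays compared only (30.6%). From day 0 to day 14 the 6 members of SaOS-2 became 7 with relabelled rma or no filter (85.4%), 5 with the arrays compared only (43.4%), 0 with 75th percentile scaling (41.1%), no scaling and as filed, 1 with centring (44.3%), 3 with calls at an unadjusted p up to 0.01 (42.5%), and 0 to 2 without 1 array; the 7 of Sa/CD99 became 9 with relabelled rma, 8 with no filter (89.3%) or the arrays compared only (83.1%), 2 with 75th percentile scaling (52.1%) or centring (53.9%), and 0 with no scaling and as filed. With the replicate block the table called let-7c and miR-98 from day 0 to day 7 in SaOS-2 (42.9% of all miRNAs), 2 members in place of 1. As filed by rma the block called 0 members there (0%), and it changed no other count of members. The shares without a filter include undetected miRNAs, whose floor in the table differs by column.

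Called differences that turned upward did so as filed or without scaling. As filed by rma, with or without the replicate block, they were in SaOS-2 0.29 for miR-98 at day 7 and 0.47, 0.37, 0.30, 0.37, 0.66 and 0.66 for let-7b, c, d, e, f and miR-98 at day 14, and in Sa/CD99 0.19, 0.12, 0.25, 0.34, 0.13 and 0.11 for let-7a, b, c, d, f and miR-98 at day 14. As filed without scaling they were in SaOS-2 0.35 for miR-98 at day 7 and 0.52, 0.57, 0.40, 0.47, 0.59 and 0.85 at day 14 in the same order, and in Sa/CD99 0.062 for let-7c and 0.50 for miR-98 at day 7 and 0.014, 0.050, 0.27, 0.30, 0.14 and 0.22 at day 14. Under the table's titles without scaling they were 0.045 at day 7 and 0.23 at day 14 for miR-98 and 0.13 for let-7f in SaOS-2, and 0.36 and 0.011 for miR-98 in Sa/CD99. miR-98 was the dimmest member, at 3.01 to 8.87 units, and how far background limits its values was not measured. The comparison of the first and last day, no scaling and the block as filed were chosen after seeing the data.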
